A study of Glycine max with 6 samples.

Results

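The transcripts described here are the 13 of 37593 soybean probe sets that measured far higher in the palisade parenchyma (PP) than in the paraveinal mesophyll (PVM) of soybean leaves. A probe set is a group of short array probes for 1 transcript. It was taken when its lowest PP intensity was at least 100 and at least 3 times its highest PVM intensity, on the values as deposited. A few gene families and genes were left out by symbol (symbols starting WRKY, MYB, BZIP, CYP or PAP, and FAD6.1, DGD2, DXR1, LHY and HSP90A1), which removed 0 probe sets past both limits. Because the rule used the PP and PVM values themselves, the members' differences between the layers are a description. Counts of limma calls that include members are given for completeness and are no test of them.

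The palisade parenchyma is the upper, tightly packed photosynthetic tissue of the leaf. The paraveinal mesophyll is a cell layer of soybean and some other legumes that lies between palisade and spongy tissue at the level of the veins, and is known for storing vegetative proteins in its vacuoles. Each layer was sampled 3 times as biological replicates, with 1 Affymetrix array per sample. Mature leaves of untreated Glycine max came from growth chambers with 16 h of light at 25 °C and 8 h of dark at 18 °C. Light was 360 to 400 µmol for all samples. No cultivar or plant age is given in the sources used here. Fixed, paraffin-embedded leaf sections served for laser microdissection, and the cells of a sample were pooled. The little RNA obtained was amplified before labelling. Titles, source names and cell type entries of the PP samples name palisade cells, although their free-text description names paraveinal cells. The former were followed, and the titles write PP as PP1.

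Markers of PVM ran with the labels. The listed PVM markers (the storage proteins VSPA and VSPB and the lipoxygenases LOXB1, LOX7 and LOX9) summed to an intensity of 96495 to 108390 in PVM and 42257 to 63721 in PP, and all 23 tested probe sets of the list measured lower in PP. Markers of photosynthetic cells (CAB3, LHCP and Rubisco activases) summed to 66694 to 93962 in PVM and 108325 to 121794 in PP, and 8 of 11 tested probe sets measured higher in PP. Scaled to the spike-in controls described next, the PVM marker sums stayed apart (115184 to 129736 in PVM, 34637 to 49655 in PP), while those of photosynthetic cells overlapped (84997 to 103840 and 93517 to 100875), so the separation of the latter depended on array scale. Each layer gave a strong signal for the other's markers. The phloem marker SUT1, a sucrose transporter, summed to 279 to 964 in PVM and 359 to 515 in PP, and the guard cell marker MYB60 to 35.6 to 433 and 24.0 to 91.5. Of the 39 tested probe sets of these lists, 0 passed an adjusted p under 0.05 in limma in either direction, while 21 were lower and 0 higher in PP at an unadjusted p under 0.05. No listed marker of epidermis or xylem matched a tested probe set. In dissected samples, fewer cells of a type and less RNA per cell cannot be told apart.

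Array scale bears on a set chosen by deposited intensity. The 11 bacterial and phage spike-in controls, which hold no leaf RNA, averaged 12.84 on the log2 scale on the PVM arrays and 13.34 on the PP arrays, which is 1.41-fold brighter on PP. Background, the 95th percentile of 23350 probe sets for other organisms, lay between 11.0 and 15.5 in PVM and between 17.2 and 20.7 in PP. PP arrays 1 and 2 correlated at 0.947 in normalized log2 values, and all other pairs at 0.811 to 0.885. With intensities scaled to the spike-in controls, 7 of the 13 still met the rule. Those that no longer met it were GmaAffx.17650.3.S1_at (VTE2-2), GmaAffx.28708.1.S1_at, GmaAffx.28708.1.S1_s_at, GmaAffx.47260.1.A1_at, GmaAffx.85918.1.S1_at and Gma.12757.1.A1_at.

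Of the 13, 3 carry a gene symbol, and 2 of these are bare LOC numbers. The other 10 are unnamed here and are given by probe set name. A missing symbol is common on this array, where the annotation covers 9047 probe sets beside 37593 soybean probe sets. Names share a stem where the array's design grouped their sequences, and the 13 fall into 11 stems, so that some members may measure related or the same transcripts. None of 11 symbol lists for leaf functions, from light reactions to transcription factors, held a member. The lists match symbols and their synonyms, so the 10 members without a symbol could not appear on any of them. This absence therefore does not show what the members do. Probe and gene sequences were not used here.

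**Figure D1:**
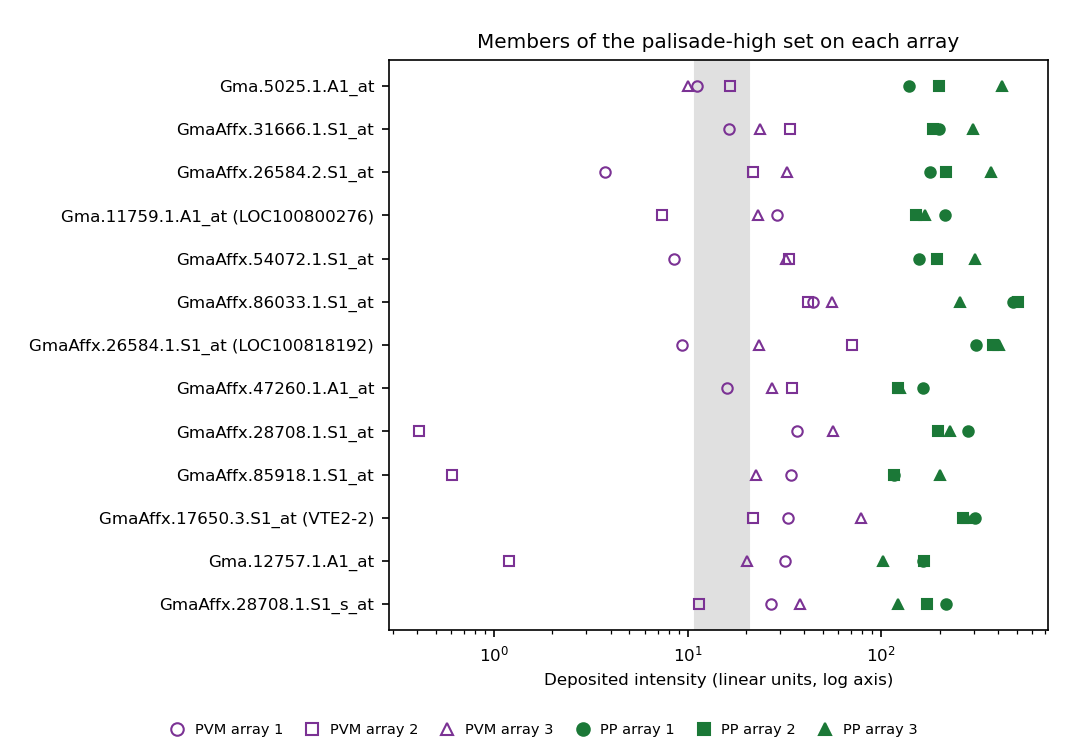
Deposited intensity (x axis, linear units on a log axis) of the 13 members (rows, ordered by lowest PP over highest PVM value) on each array, with PVM as open and PP as filled symbols and the grey band spanning background over the 6 arrays, 11.0 to 20.7. All PP values lie above 100, while the PVM values lie from 0.408 to 78.6, on both sides of the band.

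VTE2-2 is the member with a descriptive gene symbol. Genes of this name belong to the homogentisate prenyltransferases, plastid enzymes which, as known mainly from Arabidopsis, join a prenyl tail to homogentisate on the way to tocopherols (vitamin E) or plastoquinone. Its member probe set, GmaAffx.17650.3.S1_at, measured 33.0, 21.8 and 78.6 on PVM arrays 1 to 3 and 304, 264 and 279 on PP arrays 1 to 3. The PP arrays were the most even of all 13 members, the highest being 1.15 times the lowest, and all 6 arrays were above background. Mean intensity was 44.5 ± 30.0 in PVM and 282 ± 20.4 in PP (SD, n = 3 arrays per layer), and the log2 difference, PP minus PVM, was 2.43 (SE 0.35). Log2 differences here and below are of log2(intensity + 16) after quantile normalization between arrays, with the standard error (SE) from limma. With intensities scaled to the spike-in controls, GmaAffx.17650.3.S1_at no longer met the rule.

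The other probe sets of VTE2-2 did not share this contrast. GmaAffx.17650.1.S1_at measured 395, 76.3 and 220 in PVM and 367, 293 and 404 in PP (log2 difference 0.87, SE 0.52). GmaAffx.17650.2.S1_at, the brightest, measured 575, 644 and 520 in PVM and 713, 694 and 525 in PP (log2 difference 0.20, SE 0.31). On both, the layers overlapped, and the 3 probe sets of VTE2-2 therefore disagree on the size of the difference. All 3 share 1 name stem.

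Genes around homogentisate were looked up after the annotation and values had been seen. HPPD makes homogentisate, HPT1 adds the phytyl tail, and VTE5, in Arabidopsis a phytol kinase, supplies that tail. Without the member itself, the list held 10 tested probe sets, of which 7 measured higher in PP, with a median log2 difference of 0.39 against 0.06 over all 25314 probe sets tested. These 10 include the other VTE2-2 probe sets, GmaAffx.17650.1.S1_at (0.87) and GmaAffx.17650.2.S1_at (0.20), both higher in PP. The 7 and the median are therefore not of other genes alone. In limma 0 passed the threshold, and 1 had an unadjusted p under 0.05, higher in PP. The brightest HPPD probe set measured 1089, 1353 and 951 in PVM and 1182, 1177 and 1240 in PP, so the layers overlapped (log2 difference 0.05). The brightest HPT1 probe set, Gma.1339.1.A1_a_at, measured 74.6, 239 and 61.9 in PVM and 230, 156 and 104 in PP, and the layers overlapped as well (log2 difference 0.67). HPT1 was apart on its 2 dimmer probe sets, Gma.1339.2.A1_at (0.57) and GmaAffx.86298.1.S1_at (1.17), the latter at or below background on all 3 PVM arrays. A dimmer HPPD probe set, Gma.10580.2.S1_a_at, differed by 1.21 with overlap, and the brightest VTE5 probe set by -0.03. Also lower in PP were Gma.12516.2.S1_s_at (-0.41), of the same gene as that VTE5 probe set, and GmaAffx.43409.1.S1_at (-0.18), annotated to LOC100793696. No other tested probe set of this list measured lower in PP. The dimmest HPPD probe set, GmaAffx.84929.1.S1_at, measured 4.22, 2.80 and 1.07 in PVM and 16.6, 26.2 and 33.8 in PP. Its layers were apart, but all 3 PVM arrays were at or below background, and it was not among those tested. Among the lists for plastid pathways, isoprenoid and plastid lipid had 16 of 21 tested probe sets higher in PP (median log2 difference 0.37). Carbon fixation had 8 of 9 (0.25), light reactions 6 of 10 (0.03) and tetrapyrrole and carotenoid genes 3 of 5 (0.07). In these lists 0 passed the threshold in either direction. Symbols were matched by their start, so the isoprenoid and plastid lipid list also took FAD2-1A, a desaturase outside the plastid. Its counts are therefore not of plastid genes alone. At an unadjusted p under 0.05 in limma, 6 probe sets of the isoprenoid and plastid lipid list were higher in PP. That is 28.6%, against 5.63% of all tested. On the other 3 lists 0 were higher, and on the 4 lists 0 were lower. On the remaining symbol lists for leaf functions, the share higher in PP ran from 5.56% to 25.0%. It was lowest for the clock and light signalling and the flavonoid lists and highest for starch and sucrose (2 of 8). The patterns of the isoprenoid and plastid lipid list cover FAD6.1, DGD2 and DXR1, which the rule names to be left out. It holds 25 probe sets of 15 genes and was written with earlier results known. Its share is therefore a description and no test.

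LOC100818192, a protein-coding gene in RefSeq that has no descriptive name in the tables used here, had the highest log2 difference of the set. On GmaAffx.26584.1.S1_at it measured 9.36, 70.7 and 23.3 in PVM and 310, 376 and 408 in PP. The PP arrays lay close together, while the PVM arrays spread 7.56-fold, with array 2 highest and array 1 below background. The means were 34.4 ± 32.2 in PVM and 365 ± 50.1 in PP (SD, n = 3), and the log2 difference was 3.12 (SE 0.50).

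A second member, GmaAffx.26584.2.S1_at, shares this name stem but has no symbol. It measured 3.73, 21.6 and 32.8 in PVM and 179, 215 and 370 in PP (log2 difference 2.96, SE 0.46). Again PVM array 1 was lowest, and below background. Another probe set, GmaAffx.713.1.S1_at, is annotated to LOC100818192 under another stem and is no member. It was brighter, at 345, 258 and 455 in PVM and 664, 652 and 764 in PP, and the layers did not overlap. Its log2 difference was 1.03 (SE 0.34), smaller than on either member.

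LOC100800276, also protein-coding and without a descriptive name, has 1 probe set on the array with this symbol, Gma.11759.1.A1_at. It measured 29.1, 7.33 and 23.1 in PVM and 214, 152 and 169 in PP. PVM array 2 was below background, and the lowest PP value was 5.21 times the highest PVM value. Mean intensity was 19.8 ± 11.2 in PVM and 178 ± 32.5 in PP (SD, n = 3), for a log2 difference of 2.50 (SE 0.34).

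The highest ratio of the set belonged to an unnamed probe set. Gma.5025.1.A1_at measured 11.1, 16.6 and 10.0 in PVM and 139, 198 and 422 in PP, so that its lowest PP value was 8.39 times its highest PVM value. PVM arrays 1 and 3 were below background, which makes the size depend on values near the floor. It also varied most within the palisade, with PP array 3 at 3.04 times PP array 1. The log2 difference was 3.01 (SE 0.46), and 2.61 without PP array 3.

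GmaAffx.86033.1.S1_at was the brightest member and the most even in PVM. It measured 44.5, 41.7 and 55.8 in PVM, all above background, and 477, 507 and 255 in PP. Here PP array 3 was the lowest, opposite to Gma.5025.1.A1_at. The means were 47.3 ± 7.50 in PVM and 413 ± 138 in PP (SD, n = 3), for a log2 difference of 2.78 (SE 0.36).

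GmaAffx.31666.1.S1_at measured 16.4, 34.0 and 23.5 in PVM and 198, 186 and 296 in PP, with all arrays above background (log2 difference 2.56, SE 0.37). Its partner of the same stem, GmaAffx.31666.1.A1_at, measured 22.3, 15.5 and 27.4 in PVM and 83.7, 82.2 and 128 in PP. The layers were apart on both, and the partner missed the rule on both limits, with a lowest PP value 2.99 times the highest PVM value. GmaAffx.54072.1.S1_at, which has no partner, measured 8.50, 33.2 and 32.4 in PVM and 157, 195 and 306 in PP (log2 difference 2.55, SE 0.43). PVM array 1 was below background for it.

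GmaAffx.47260.1.A1_at had the smallest log2 difference of the set, 1.89 (SE 0.35). It measured 16.0, 34.4 and 27.2 in PVM and 164, 123 and 124 in PP. Its partner GmaAffx.47260.1.S1_at was dim, at 16.1, 39.7 and 7.04 in PVM and 29.1, 53.3 and 57.1 in PP. On the partner the layers overlapped, and the log2 difference was 0.74 (SE 0.48).

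The stem GmaAffx.28708 gave 2 members. GmaAffx.28708.1.S1_at measured 36.7, 0.408 and 56.3 in PVM and 280, 196 and 226 in PP (log2 difference 2.77, SE 0.53). GmaAffx.28708.1.S1_s_at, whose s marks probes shared by several sequences, measured 26.9, 11.5 and 38.0 in PVM and 216, 172 and 122 in PP (log2 difference 2.22, SE 0.34). On both, PVM array 2 was lowest. The remaining probe set of the stem, GmaAffx.28708.1.S1_x_at, measured 16.2, 6.47 and 31.2 in PVM and 170, 85.2 and 163 in PP. It kept the layers apart with a log2 difference of 2.22, and missed the rule through PP array 2. These 3 probe sets carry 1 design sequence name and are not independent measurements.

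GmaAffx.85918.1.S1_at measured 34.3, 0.608 and 22.7 in PVM and 116, 117 and 202 in PP (log2 difference 2.37, SE 0.49). Its partner GmaAffx.85918.2.S1_at was brighter than this member in both layers, at 163, 101 and 285 in PVM and 543, 411 and 263 in PP. The layers of the partner overlapped (log2 difference 1.21). Gma.12757.1.A1_at measured 31.8, 1.19 and 20.1 in PVM and 163, 167 and 102 in PP (log2 difference 2.43, SE 0.44). GmaAffx.28708.1.S1_at, like GmaAffx.85918.1.S1_at, was named after its values were seen.

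**Figure D2:**
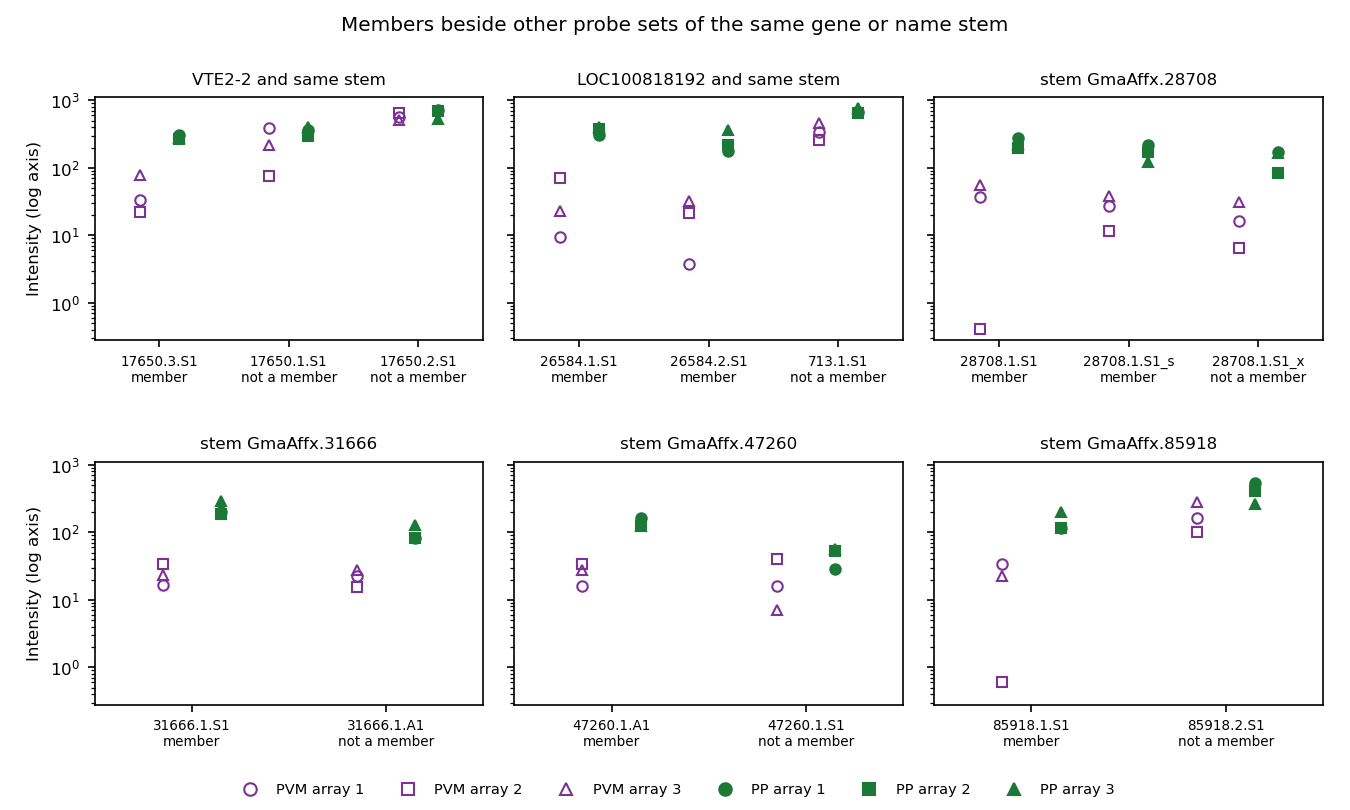
Intensity on each array (y axis, log scale) of members beside other probe sets of the same gene or name stem, with PVM as open and PP as filled symbols and 1 panel for each gene or stem. VTE2-2 has 1 member and 2 probe sets whose layers overlap, whereas all 3 probe sets in the panels of LOC100818192 and of stem GmaAffx.28708 keep the layers apart.

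Across these genes and stems, 7 probe sets that are no members stood beside the members. All 7 had a higher mean in PP, and on 3 of the 7 the layers did not overlap, while the PP arrays lay wholly above the PVM arrays for 11.1% of tested probe sets on the deposited values. These 7 were measured on the same arrays as the members, so they are no independent check.

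As a set, the 13 were of moderate intensity in the palisade and dim in PVM. Mean PP intensity ran from 137 to 413 with a median of 227, which places the members at percentiles 67.0 to 83.4 of soybean probe sets on the PP arrays. Mean PVM intensity ran from 12.6 to 47.3, percentiles 29.1 to 47.6 on the PVM arrays. Log2 differences ran from 1.89 to 3.12 with a median of 2.55, against 0.06 over all tested probe sets.

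Relative to the mean, the spread was larger in PVM, where values were near the floor, although the SD itself was larger in PP for 12 of 13 members. Of the 39 PVM values of the members, 9 were at or below background, in 8 of the 13 members, and in no member were all 3 PVM arrays below it. The coefficient of variation was 7.21% to 59.1% over the PP arrays (median 26.6%) and 15.8% to 93.4% over the PVM arrays (median 56.8%), and it was lower in PP for 11 of 13. PVM array 2 was the lowest PVM array for 7 members, among them 3 values under 2. Among the 6957 soybean probe sets of the same range of mean PVM intensity, PVM array 2 was lowest for 48.8%. Without PVM array 2 the log2 differences of those 3, GmaAffx.28708.1.S1_at, GmaAffx.85918.1.S1_at and Gma.12757.1.A1_at, were 2.12, 1.88 and 1.98. PP array 3 was the highest PP array for 6 members and the lowest for 3, against 39.9% and 39.7% of the 11305 soybean probe sets with a lowest PP value of at least 100.

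None of the 13 passed an adjusted p under 0.05 in limma, where 0% of the 25314 tested probe sets, 0 in all, passed as higher in PP and 1424 had an unadjusted p under 0.05 in that direction (5.63%). All 13 passed the filter on low values, which the rule ensured through the PP arrays. With an intensity trend and a robust prior, limma called 13 probe sets higher in PP (0.0514% of those tested), of which 4 are members: Gma.5025.1.A1_at, both probe sets of stem GmaAffx.26584 and GmaAffx.86033.1.S1_at. That is 30.8% of each list. A pseudocount of 64 gave 3 calls in PP (0.0119%), all of them members. The same 3 fits called 11, 136 and 54 probe sets higher in PVM, in the order given. Since the rule used this contrast, these counts say nothing further about the members. After normalization the PP arrays lay wholly above the PVM arrays for 10.1% of tested probe sets, and for all 13 members, which the rule had chosen for this on the deposited values.

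**Figure D3:**
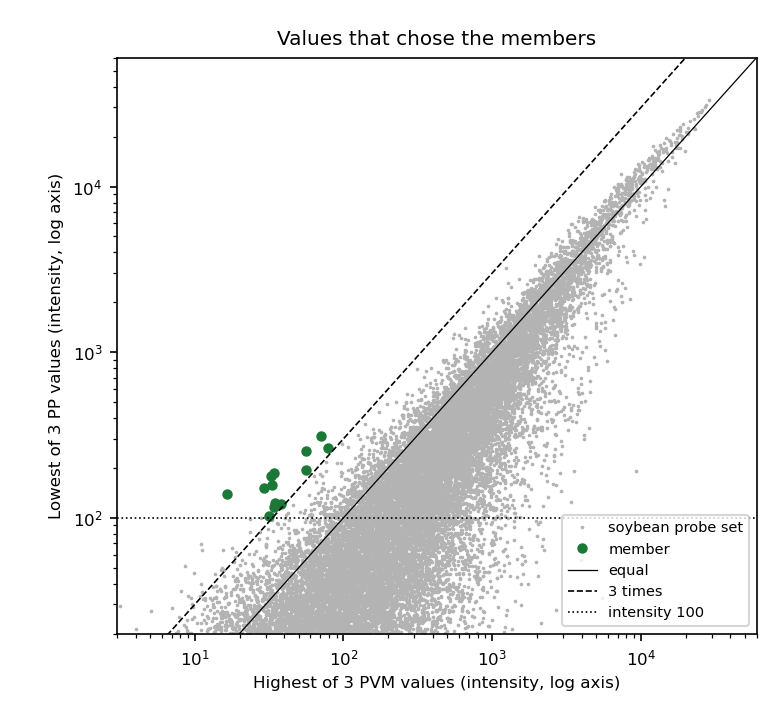
Lowest PP value (y axis) against highest PVM value (x axis) of soybean probe sets with a lowest PP value of at least 20, both as intensity on log axes, with members in green and lines for equal values, a ratio of 3 and an intensity of 100. The members have lowest PP values from 102 to 310, and no probe set with a higher lowest PP value crosses the line for 3.

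The limits cut through a continuous range. Just inside the ratio of 3 were Gma.12757.1.A1_at at 3.21 and GmaAffx.28708.1.S1_s_at at 3.20, and just outside were Gma.17667.1.S1_at and GmaAffx.53036.1.S1_at, both at 2.84. FAD6.1, a plastid fatty acid desaturase among the symbols left out, was next at 2.83. By intensity, Gma.12757.1.A1_at (lowest PP value 102) and GmaAffx.85918.1.S1_at (116) were just inside, and GmaAffx.34472.1.S1_at (99.5) and WRKY15 (99.0) just outside with ratios of 3.54 and 4.22. WRKY15 would also have been left out by its symbol. A further 202 soybean probe sets had a ratio of at least 3 with a lowest PP value under 100. Among the 2464 probe sets with a lowest PP value of at least 1000, the highest ratio was 2.58, on the unnamed GmaAffx.6418.1.S1_at, named after its values were seen. It measured 1165, 1125 and 1244 in PVM and 3464, 6312 and 3208 in PP.

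Seen from the other side, the same limits with the layers swapped took 118 probe sets higher in PVM, before any symbol was left out, against the 13 higher in PP. The order was the other way round at the lowest bar: with an intensity of at least 100 and no overlap, 2026 probe sets were higher in PP and 1371 in PVM. At a ratio of 2 the counts were 57 and 288, at 4 they were 7 and 66, and at 5 they were 4 and 36. On quantile-normalized intensities the counts were 1794 and 1288 without overlap and 17 and 102 at a ratio of 3. The difference between the directions was not tested.

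**Figure D4:**
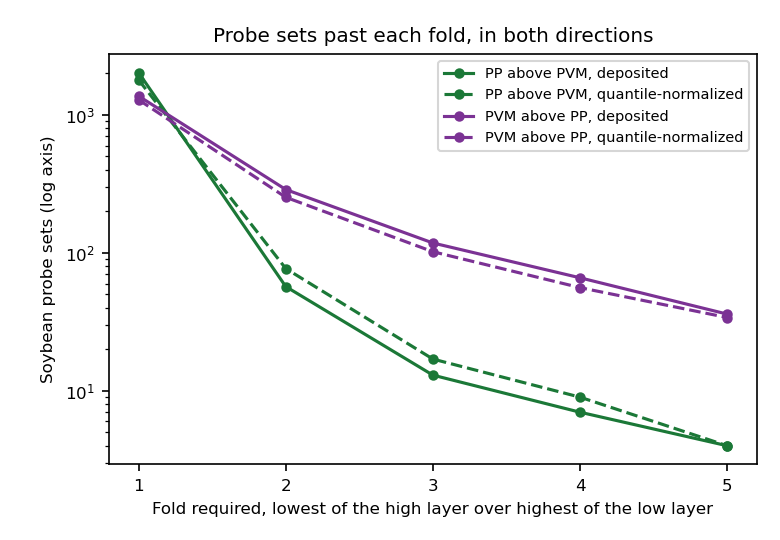
Number of soybean probe sets (y axis, log scale) whose lowest value in the high layer is at least 100 and exceeds the highest value in the low layer by the fold on the x axis, for PP above PVM (green) and PVM above PP (purple), on deposited (solid) and quantile-normalized (dashed) intensities; at fold 1 the layers need only not overlap. More probe sets favour PP at fold 1 (2026 against 1371) and more favour PVM at fold 3 (118 against 13).

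How large each difference appears depends on the constant added before the logarithm, since the PVM values are dim. With a pseudocount of 1 the median log2 difference of the 13 was 3.24, and with 64 it was 1.70. Over the settings run, single members ranged from 1.18 to 4.11. That PP stayed above PVM was fixed by the choice of members.

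**Figure D5:**
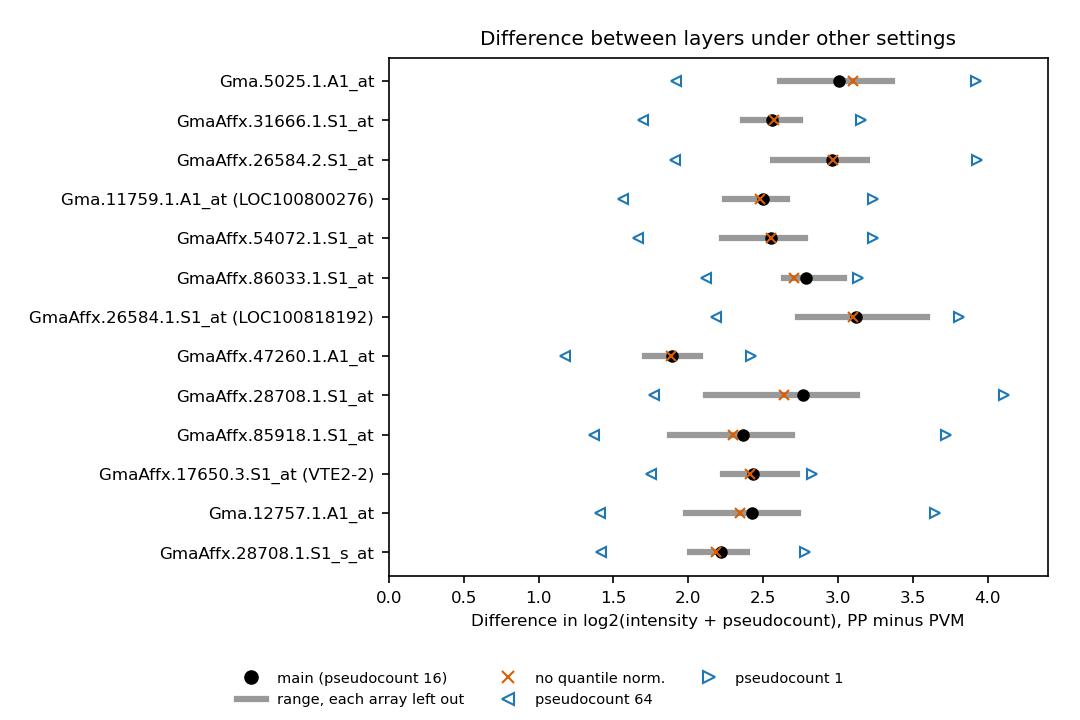
Difference in log2(intensity + pseudocount), PP minus PVM (x axis), for each member, with the main value in black, the range over leaving out each array in turn as a grey bar, no quantile normalization as crosses and pseudocounts of 64 and 1 as triangles. The main values run from 1.89 to 3.12, and the pseudocount moves them further than leaving out an array does.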

How the data were processed

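RNA of 3 PVM and 3 PP samples was measured on 1-colour arrays. The authors deposited linear intensities, 1 per probe set and array, with a 2% trimmed mean of 125 on every array. Which program, summarisation and scaling they used is not stated in the labels. The members were found on these intensities. For log2 differences (PP minus PVM), log2(intensity + 16) was quantile-normalized over 61170 probe sets and fitted with limma 3.58.1 in R 4.3.3 (lmFit, eBayes, 2-sided, Benjamini-Hochberg, threshold 0.05) over 25314 soybean probe sets brighter than background on 3 or more of 6 arrays. The fit was tested on simulated data. Symbols came from the platform annotation (9047 probe sets, 8652 matched) and a RefSeq table for Glycine_max_v4.0. Its coordinates are not printed, since the files name no build. All members with a symbol, the 6 unnamed ones with the highest ratio and those nearest the limits were to be named. The members and lists were chosen with earlier results of these data known. The number of arrays limits the precision.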

Additional observations from a re-analysis of the deposited data

How the results depend on the processing

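The count of members depended on the limits and on the arrays used. It was 22 with a lowest PP value of at least 50, 3 with at least 200, 56 at a ratio of 2 and 7 at a ratio of 4, and 27 to 68 with 1 array left out, where fewer values have to pass. Added after the data were seen, averaging PP arrays 1 and 2 gave 25 and scaling to the spike-in controls 7. The marker sums scaled in that way were added then too. On quantile-normalized intensities it was 16 (12 of the 13 among them), on intensities scaled to 1 soybean median 15 (12 of the 13), and without probe sets marked as shared 12. Calls higher in PP numbered 0 in limma, 3 with a pseudocount of 64 and 13 with an intensity trend and robust prior, and 0 with each array left out. The members' median log2 difference was 3.24 with a pseudocount of 1, 1.70 with 64, and 2.25 to 2.66 with 1 array left out. With the replicate number as a block the fit made 0 calls in PP, and the median stayed 2.55. The numbers were not taken to pair samples, since the labels do not say that they do. Same-numbered arrays deviated together at r = 0.02, 0.03 and 0.05, and differently numbered ones at -0.04 to 0.01. With 3 arrays per layer, these small values do not decide whether samples were paired. Of 156 values for single members under other settings, 25 moved by more than the spread between replicates, all 25 with another pseudocount. Their sign was fixed by the choice of members.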
